A study of Mus musculus with 2 samples.

Results

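PD-1 TIM-3 CD8 T cells with Gzmk were chosen by their transcripts. A member held at least 1 UMI of Cd8a or Cd8b1, of a CD3 gene, and of each of Pdcd1, Havcr2 and Gzmk, and no UMI of Cd4, Foxp3 or Mki67. Granzymes D to G together made up under 1% of its UMIs. The rule found 1237 members among 21021 kept cells, of which 520 came from the library labelled WT and 717 from the library labelled Dapl1-KO. A UMI is a molecular tag that counts 1 captured RNA molecule, and CPM is the summed count of a gene in a group of cells, scaled to a common total of UMIs.

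The study profiled CD45+ CD90.2+ cells sorted from tumours of C57BL/6 mice by 10x Genomics single-cell sequencing, with 1 library for the wild-type genotype and 1 for Dapl1 deficiency. Its stated purpose was to compare T cells of the 2 genotypes within the tumour. The number of animals, their age and sex, the tumour type and the deleted part of Dapl1 are not given in the sources used here. With 1 library per genotype no test between genotypes exists, and every interval below is an exact 95% interval that covers counting error only.

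PD-1 and TIM-3, encoded by Pdcd1 and Havcr2, are inhibitory receptors that CD8 T cells carry together during prolonged antigen exposure in tumours and chronic infection. Granzyme K is a tryptase-like protease of cytotoxic granules, and in tumours it is known from PD-1 positive CD8 cells at several stages of exhaustion. Such cells are usually set against progenitor-like cells, which keep the transcription factor TCF1 (Tcf7) and can renew themselves.

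Before the results, several properties of the libraries need stating. The 2 libraries shared 13132 cell barcodes. Of these only a copy with at least 2 times the UMIs of the other was kept, and 450 of the 520 members labelled WT and 492 of the 717 labelled Dapl1-KO still had a barcode that also occurs in the other library. Dapl1 itself did not separate the libraries: members labelled WT held 5.34 CPM and those labelled Dapl1-KO 5.01 CPM, and progenitor-like cells held 131 and 124 CPM. Whether the counted Dapl1 tags lie outside the deleted part was not tested. Sex-linked transcripts did separate them, since 407 of 520 members labelled WT held Xist and no Y-linked UMI, whereas 599 of 717 members labelled Dapl1-KO held Y-linked UMIs and no Xist. Genotype label, sex-linked RNA and library therefore cannot be told apart. Deposited depth was 154408101 and 206322042 UMIs over 16673 and 19662 barcodes.

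Under the WT label members made up 5.27% of kept cells (4.84 to 5.73%), and under the Dapl1-KO label 6.43% (5.98 to 6.90%). Among PD-1 TIM-3 CD8 cells they were the larger share, 72.1% (68.7 to 75.4%) and 69.7% (66.8 to 72.5%), and those intervals overlapped. Of CD8-gated cells they were 10.9% (10.0 to 11.8%) and 11.96% (11.1 to 12.8%).

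Gzmk was sparse in each member. The median was 3 UMIs in both libraries and the highest cell held 18 and 26. At the edge of the rule, 152 and 183 members held exactly 1 Gzmk UMI, and 201 and 312 cells met every other criterion with 0. Cells just outside therefore differed from those just inside by a single molecule. A naive CD8 gate, which should lack the gene, had a Gzmk UMI in 3.40% and 2.99% of cells at median depths of 7620 and 9934 UMIs, against median depths of 14990.5 and 15049 UMIs in members. The same naive cells held Pdcd1 in 6.42% and 5.97% and Havcr2 in 2.64% and 0.75%.

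Levels of Lag3, Tox, Rgs16 and Cxcr6, which the rule did not use as thresholds, describe the members. These genes were chosen with earlier results of these data known, so they are not an independent check of the label. Lag3, an inhibitory receptor for MHC class II, stood at 287 CPM (276 to 298) in members labelled WT and 301 CPM (292 to 311) in those labelled Dapl1-KO. Tox, a nuclear factor of the exhausted state, stood at 164 CPM (156 to 173) and 136 CPM (130 to 143). Rgs16, a brake on G-protein signalling, stood at 296 and 308 CPM. All were above progenitor-like cells, which held 90.9 and 80.1 CPM of Lag3 and 82.3 and 79.1 CPM of Tox. Cxcr6, a receptor that holds T cells in tissue, was at 237 CPM (226 to 247) and 347 CPM (336 to 357) in members and at 72.4 and 95.8 CPM in progenitor-like cells. These markers set members apart less from other PD-1 cells. PD-1 TIM-3 cells without Gzmk held Lag3 at 301 and 298 CPM and Rgs16 at 341 and 335 CPM. PD-1 CD8 cells lacking TIM-3 and Tcf7 held Rgs16 at 334 and 330 CPM, above members, and Tox at 155 and 141 CPM, whereas their Lag3 was lower at 221 and 219 CPM and their Cxcr6 at 210 and 313 CPM.

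**Figure D1:**
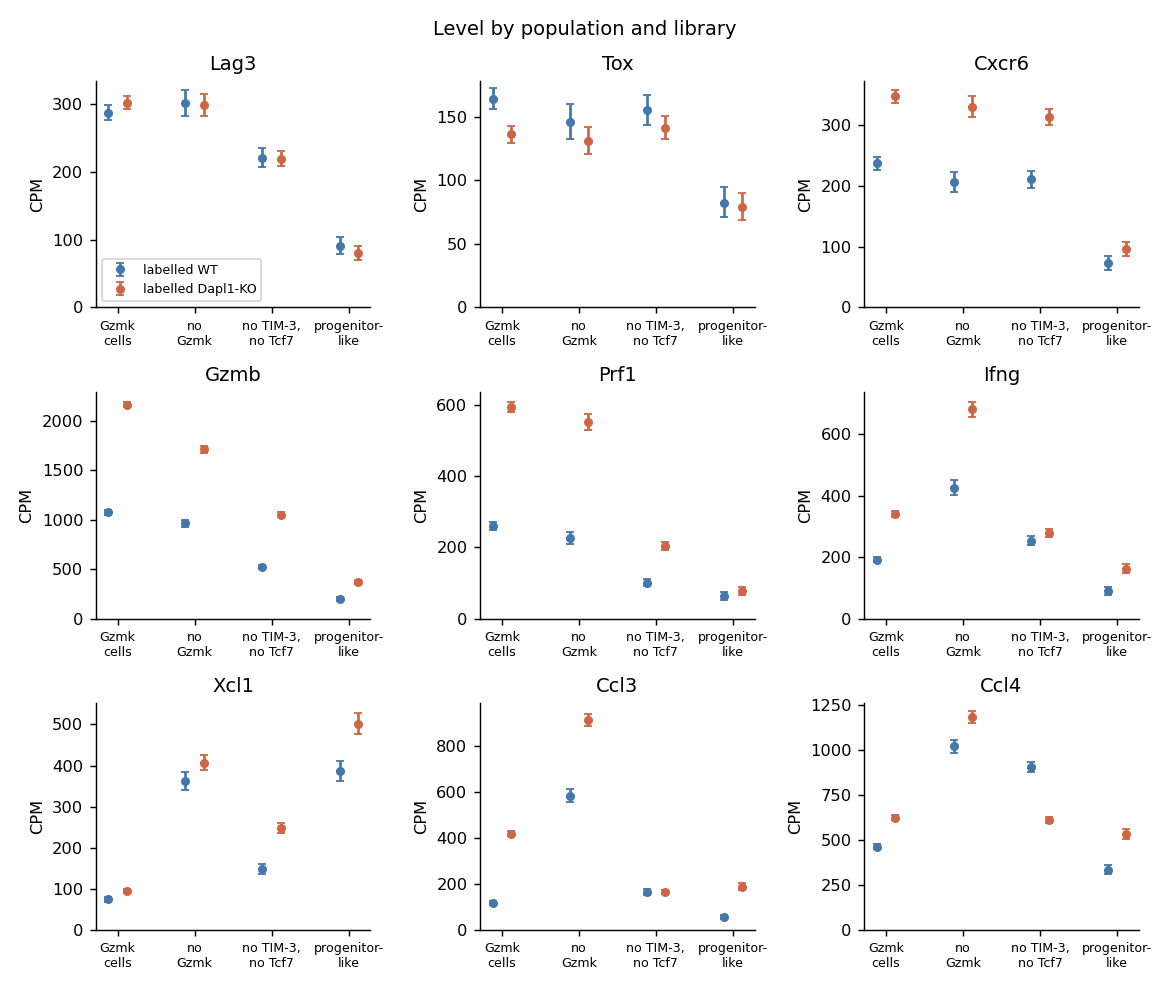
Level of 9 genes in CPM (vertical axes, linear) in Gzmk cells, PD-1 TIM-3 CD8 cells without Gzmk, PD-1 CD8 cells lacking TIM-3 and Tcf7, and progenitor-like PD-1 CD8 cells, in the libraries labelled WT (blue) and Dapl1-KO (orange). Points are summed counts over the cells of 1 library and bars are exact 95% counting intervals. Xcl1 is lowest in the Gzmk cells in both libraries, at 74.0 and 94.1 CPM. Cells lacking TIM-3 and Tcf7 and progenitor-like cells were taken with any Gzmk level.

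The first comparison set members beside PD-1 TIM-3 CD8 cells without Gzmk, 201 and 312 cells. The 2 populations were close: 34 of 4266 genes at 20 CPM or more (0.797%) differed by 1.5-fold or more in the same direction in both libraries, 6 higher in members (0.141%) and 28 lower (0.656%). The chemokines Xcl1 and Ccl1 had the lowest ratios. Higher genes included Maf, Chchd10, Gtf2i and Mt1, with smaller ratios of 0.50, 0.49, 0.57 and 0.57, all within the limit, when all deposited barcodes were used.

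Xcl1, a chemokine that attracts cross-presenting dendritic cells, stood at 74.0 CPM in members and 361 CPM in cells without Gzmk in the library labelled WT, a log2 ratio of -2.29 (-2.43 to -2.15). In the library labelled Dapl1-KO the levels were 94.1 and 406 CPM, a log2 ratio of -2.11 (-2.22 to -2.00). The share of cells with an Xcl1 UMI after thinning each cell to 3000 UMIs was also lower, 6.17% against 15.5% and 7.0% against 15.9%. Ccl1, a ligand of CCR8, was lower by log2 ratios of -2.97 and -2.05, with 17.0 and 18.9 CPM in members. Ccl3 and Ccl4, inflammatory chemokines that attract leukocytes, had log2 ratios of -2.32 and -1.13, and of -1.15 and -0.92. Among cells without Gzmk labelled WT, the highest cell held 803 of 1793 Ccl3 UMIs, and the highest for Ccl4 held 1235 of 3145. After thinning, Ccl3 was in 18.1% of members against 24.5% under the WT label, and in 29.3% against 36.0% under the Dapl1-KO label. Ccl4 was in 39.5% against 38.5%, and in 47.3% against 54.9%. Ifng, the signature cytokine of cytotoxic T cells, had log2 ratios of -1.15 (-1.25 to -1.04) and -0.999 (-1.07 to -0.93). Il18r1, the IL-18 receptor, followed with -1.52 and -1.07. Of the 7 chemokines measured, 5 were lower, against 0.656% of all genes, and Ccl5 was instead higher by 0.46 and 0.46, within the limit.

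Maf, a transcription factor of exhausted and regulatory programmes, stood at 92.3 against 42.5 CPM in the library labelled WT, a log2 ratio of 1.12 (0.85 to 1.40). In the library labelled Dapl1-KO it was 59.0 against 36.7 CPM, 0.68 (0.44 to 0.93). Mt1, a metal-binding metallothionein, had log2 ratios of 1.32 and 0.60. Of 11 inhibitory receptors measured, 0 were past the limit. Of 17 exhaustion factors 3 were, against 0.797% of all genes: Maf was higher, and Tbx21 and Zeb2, transcription factors of effector cells, were lower, with log2 ratios of -0.95 and -0.63 and of -0.76 and -0.68.

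Signs of other lymphocyte and myeloid cells moved with this comparison. Summed NK marker levels under the WT label were 16.1 CPM in members and 48.0 CPM in cells without Gzmk, and under the Dapl1-KO label 38.0 and 80.9 CPM; gamma-delta markers were 6.02 and 6.82, and 18.7 and 138 CPM. Macrophage markers summed to 173 and 345 CPM, and to 317 and 362 CPM. Leaving out cells with markers of other lineages gave a smaller Xcl1 log2 ratio of -1.83 and an Areg ratio of -0.16, against -0.77 with all cells. Restriction to cells that held Y-linked but no Xist UMIs left 60 members and 34 cells without Gzmk in the library labelled WT. Xcl1 was then -0.49, Ccl1 -0.25 and Ifng -0.16, all within the limit, and Ccl3 and Ccl4 differed in direction between the libraries. The part of sex-linked and other-lineage RNA in these ratios was not tested. With barcodes in both libraries left out, Xcl1 also differed in direction between the libraries.

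The promoters of Gzmk, which defines the members, and of Xcl1 and Ccl1, the genes with the lowest ratios in them, are shown as 250 bases before to 50 bases after the annotated start, from RefSeq on GRCm38.p6. They are read in the direction of transcription. Capitals mark GGAAA on either strand, the core letters bound by NFAT, and its reverse TTTCC.
Gzmk: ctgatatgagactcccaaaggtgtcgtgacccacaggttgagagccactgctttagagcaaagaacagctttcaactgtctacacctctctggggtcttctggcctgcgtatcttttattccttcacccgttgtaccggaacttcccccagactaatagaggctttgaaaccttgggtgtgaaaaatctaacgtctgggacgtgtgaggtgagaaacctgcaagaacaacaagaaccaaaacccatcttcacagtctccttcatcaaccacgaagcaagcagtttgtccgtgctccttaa
Xcl1: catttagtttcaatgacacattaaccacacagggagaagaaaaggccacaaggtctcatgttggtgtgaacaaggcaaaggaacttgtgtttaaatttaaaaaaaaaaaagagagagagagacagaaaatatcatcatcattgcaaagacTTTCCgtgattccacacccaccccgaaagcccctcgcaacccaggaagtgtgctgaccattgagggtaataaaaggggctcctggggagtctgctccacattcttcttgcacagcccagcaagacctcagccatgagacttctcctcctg
Ccl1: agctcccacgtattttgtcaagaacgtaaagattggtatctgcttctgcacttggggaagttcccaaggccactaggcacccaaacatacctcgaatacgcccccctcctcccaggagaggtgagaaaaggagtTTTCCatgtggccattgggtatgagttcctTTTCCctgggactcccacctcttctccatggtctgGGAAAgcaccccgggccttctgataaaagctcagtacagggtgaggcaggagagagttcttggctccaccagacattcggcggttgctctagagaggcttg
The Gzmk window lies at chr13:113180916-113181215 on the minus strand, the Xcl1 window at chr1:164935473-164935772 and the Ccl1 window at chr11:82179763-82180062, both also minus. GGAAA was found 0 times in the Gzmk window, 1 time in the Xcl1 window and 3 times in the Ccl1 window. Of 32851 windows of the same length, 61.3% held it, and 26.7% held it 2 or more times. TGANTCA, the AP-1 letters, was absent from all 3 windows and present in 7.81% of all windows. A match is a run of letters and not a bound site.

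A second comparison set members beside PD-1 CD8 cells lacking TIM-3 and Tcf7, 446 and 711 cells, whose median depths were 8429.5 and 8300 UMIs. Gzmk was not a criterion for these cells, and 63.7% and 63.2% of them held a Gzmk UMI. Their Gzmk level was 179 and 186 CPM, against 209 and 213 CPM in members. Of 4195 genes, 67 (1.6%) were past the limit in both libraries, 43 higher (1.03%) and 24 lower (0.572%) in members. The class II gene H2-Ab1 had the highest ratio, 1.79 and 1.87 in the libraries labelled Dapl1-KO and WT. The highest named genes were the chemokine Ccl9 and Cd74, the class II invariant chain. Under the WT and Dapl1-KO labels, H2-Ab1 was seen in 14.6% and 16.0% of members. Cells with markers of other lineages made up 9.04% and 13.5% of members, and 5.61% and 8.30% of the other cells. Leaving them out moved the Cd74 ratio from 1.52 to 1.90. Of 18 cytotoxic granule genes 3 were higher, Gzmb, Gzmc and Prf1, and 0 lower. Xcl1 had the lowest ratio, and of 14 homing receptors 3 were lower, Cxcr4, S1pr1 and Cd69. Prf1, the pore-forming protein of cytotoxic granules, was at 260 and 595 CPM in members and 100 and 204 CPM in the other cells, log2 ratios of 1.37 and 1.55. Gzmb, the main serine protease of those granules, had ratios of 1.04 and 1.04. Il2ra, the high-affinity chain of the IL-2 receptor, had ratios of 0.99 and 1.06. Of 20 glycolysis and hypoxia genes 2 were higher past the limit and 0 lower. In this list 19 of 20 ratios were above 0, against 1931 of 4195 over all genes, and Ldha, a glycolytic enzyme, stood at 801 against 495 CPM in the library labelled WT. Xcl1 was lower by ratios of -0.99 and -1.39, and its smaller ratio was -0.17 where Xist-bearing cells were left out. Cd69, a receptor of recent activation and tissue retention, was lower by -0.78 and -0.86. Under depth limits of 5000 to 20000 UMIs only 10 of the 20 named genes stayed past the limit, and with all deposited barcodes 9. In the latter setting Gzmb had 0.35, Prf1 0.45 and Cd74 0.08, all within the limit. Gzmc differed in direction between the libraries in that setting. It did so too with barcodes in both libraries left out, and where Xist-bearing cells were left out and Y-linked UMIs required. Ccl9 had 0.19 under the depth limits, and differed in direction with barcodes in both libraries left out. Cd69 had -0.50 where Xist-bearing cells were left out.

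Against progenitor-like PD-1 CD8 cells, 206 and 253 cells, the difference was far broader: 859 of 4416 genes (19.5%). In members 524 were higher (11.9%) and 335 lower (7.59%). Gzmk was no criterion here either, and 32.5% and 32.0% of the progenitor-like cells held it. All 20 named genes stayed past the limit under 10 of 11 alternative settings and 19 of 20 where Xist-bearing cells were left out and Y-linked UMIs required. The exception was Xcl1, which there differed in direction between the libraries. Of 18 cytotoxic granule genes 8 were higher and 1, Lamp1, lower. Of 11 costimulatory genes 5 were higher and 1, Cd7, lower. Gzmb was at 1072 and 2160.5 CPM against 198 and 368 CPM, log2 ratios of 2.43 and 2.55. Mt2 had ratios of 3.22 and 2.71, and Tnfrsf9, the costimulatory receptor 4-1BB, 1.93 and 2.09. Entpd1, the ectoenzyme CD39 that marks terminally exhausted cells, had ratios of 1.88 and 2.46.

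Progenitor genes were the reverse. Il7r, the IL-7 receptor chain, had log2 ratios of -2.37 and -2.29, and Klf2, a factor that keeps T cells in circulation, -2.89 and -3.33. Of 13 progenitor-list genes measured 12 were lower, against 7.59% of all genes. A gate requiring Tcf7 in the other cells partly fixes that count. Glycolysis and hypoxia genes had a median log2 ratio of 1.01, against 0.01 over all genes. Of 20 such genes 15 were higher past the limit, against 11.9% of all genes. Dapl1 showed the greatest difference, with ratios of -4.62 and -4.62. Median depth was 10813.5 and 9612 UMIs in the progenitor-like cells.

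**Figure D2:**
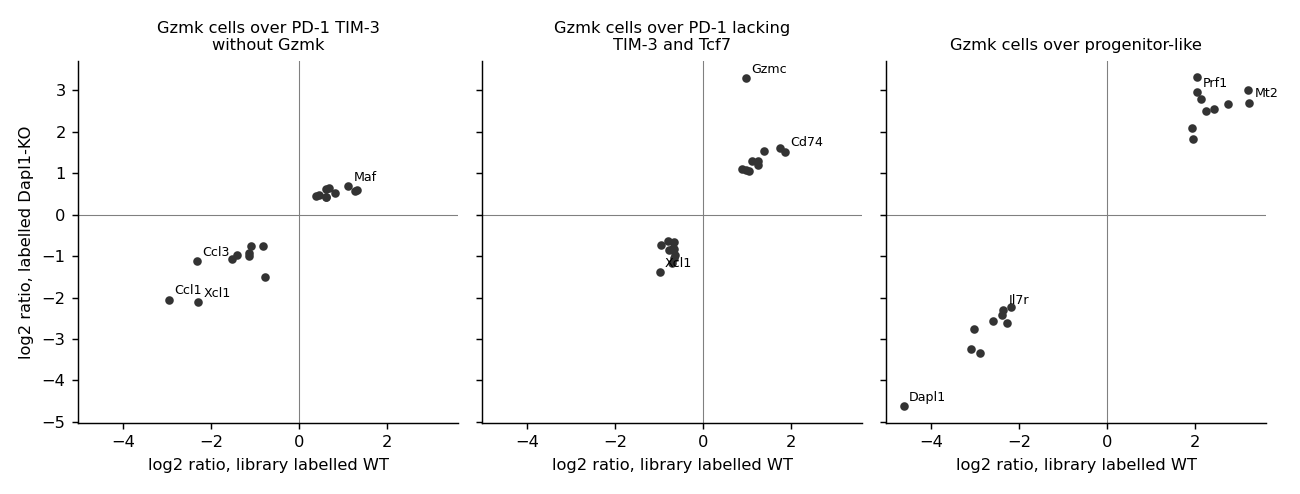
Log2 ratio of Gzmk cells over 3 other populations for the named genes of each comparison, in the library labelled WT (horizontal axis) against that labelled Dapl1-KO (vertical axis). Points in the upper right and lower left quadrants differ in the same direction in both libraries. The third panel spans the widest range, from -4.62 for Dapl1 upward. Of the other populations, only the PD-1 TIM-3 cells without Gzmk were chosen to lack Gzmk.

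The 2 libraries were then compared within members. Of 4523 genes, 298 (6.59%) differed by 1.5-fold or more, 195 of them higher under the Dapl1-KO label (4.31%) and 103 lower (2.28%). Among the named genes the highest ratio was 5.09, of Ifitm1, an interferon-induced membrane gene with 21 and 1003 counts in 4 and 69 members. Next came Slpi, Saa3, Il1b, Arg1 and class II genes, transcripts typical of myeloid and antigen-presenting cells and seen in few members. Slpi was found in 10 of 520 and 35 of 717 members, and Il1b in 20 and 64. Members with markers of other lineages numbered 47 (9.04%) and 97 (13.5%), and the macrophage list summed to 173 and 317 CPM, with 10 of 10 markers above 0 in both libraries. The ranking was repeated without those members, and it then named the genes shown in the right panel of the plot of ratios. Genes again had to reach 50 CPM in a library. Without those members Ifitm1 had a ratio of 5.26, Slpi 4.08, Saa3 3.74, Il1b 3.02 and Arg1 2.84. They are missing from the right panel because their levels fell below that minimum.

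**Figure D3:**
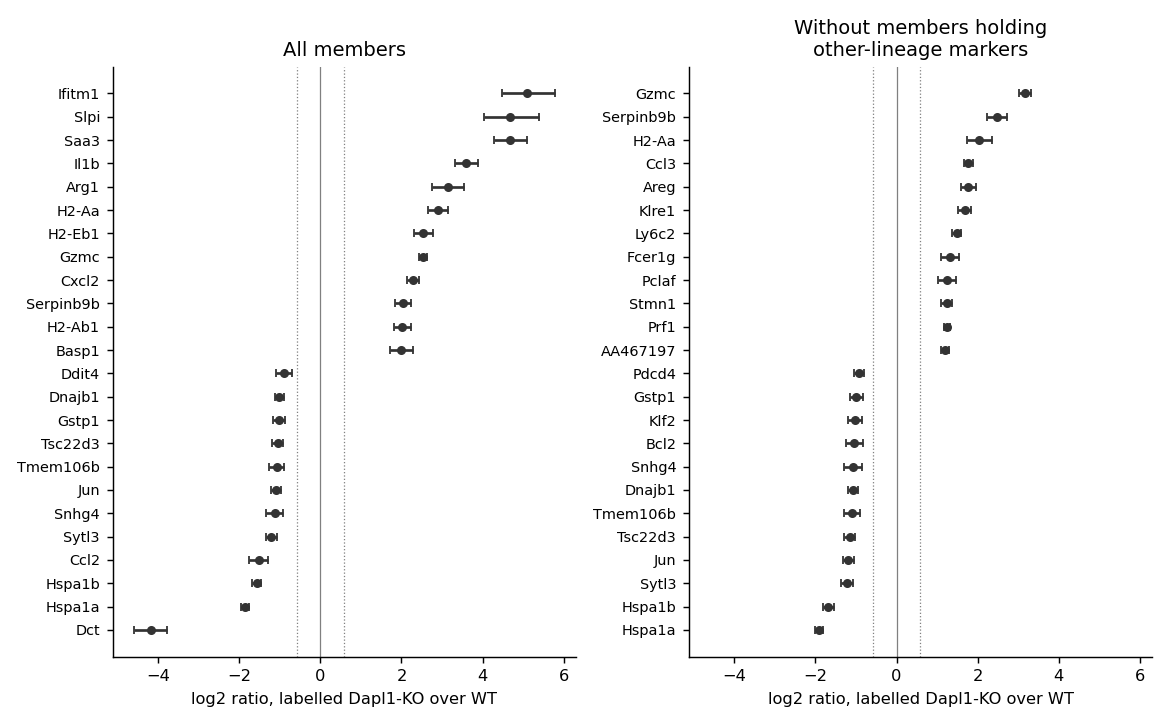
Log2 ratio of the library labelled Dapl1-KO over that labelled WT in Gzmk cells for the 12 highest and 12 lowest genes, over all members (left) and without members holding markers of other lineages (right). Points are ratios of summed counts with exact 95% counting intervals and dotted lines mark 1.5-fold. Ifitm1 is highest on the left, at 5.09. Gzmc, at 3.16, is the highest on the right among genes still at 50 CPM or more. Ifitm1, at 5.26 without those members, is below that level and not shown there.

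Of 18 cytotoxic granule genes measured, 6 were higher and 0 lower, against 4.31% and 2.28% of all genes. Their median was 0.51, against 0.03 over all genes. Gzmb stood at 1072 CPM (1051 to 1094) under the WT label and 2160.5 CPM (2135 to 2187) under the Dapl1-KO label, a log2 ratio of 1.01 (0.98 to 1.04). Prf1 was at 260 and 595 CPM, a ratio of 1.19 (1.13 to 1.26), and was seen in 72.9% and 85.9% of members. Across 11 alternative settings the Gzmb ratio ranged from 0.90 to 1.16 and that of Prf1 from 0.81 to 1.91. Neither difference was particular to members. In PD-1 cells lacking TIM-3 and Tcf7, Gzmb was at 522 and 1048 CPM and Prf1 at 100 and 204 CPM. In cells without Gzmk, Gzmb was at 962 and 1710 CPM and Prf1 at 226 and 553 CPM. Cells gated as NK cells held Gzmb at 631 and 1050 CPM, whereas those gated as regulatory T cells held 577 and 554 CPM. Ctla2a, a cathepsin-inhibitor-like gene on the list, had -0.58, just within the limit. Gzmc, a granzyme of the B cluster that prolonged stimulation induces, had a ratio of 2.53 (2.43 to 2.64), but 1 cell held 18.0% of its counts in the library labelled Dapl1-KO. In cells with 5000 to 20000 UMIs the Gzmc ratio was 1.51. The rule capped granzymes D to G, of the same cluster, at 1% of UMIs, and 7 and 34 members held 0.5 to 1%. Left out by that cap alone were 21 and 25 cells at 1 to 2%, and 12 and 22 at 2% or more. The part of the cap in the Gzmc ratio was not tested. Serpinb9b, a serpin of the granzyme-inhibiting family, was at 29.0 and 118 CPM.

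Among effector surface and secreted genes, Ly6c2, a surface antigen of effector and memory CD8 cells, was at 97.0 and 281 CPM, a ratio of 1.54 (1.43 to 1.65). Klre1, a lectin receptor, was at 52.1 and 163 CPM. Ccl3 was at 117 and 417 CPM, a ratio of 1.84 (1.74 to 1.94). Ifng had a ratio of 0.83 (0.74 to 0.91), which became -0.15 when barcodes in both libraries were left out, a setting with 70 and 225 members. Areg, an epidermal growth factor ligand, was in 6.35% and 19.4% of members. Ifitm1, the highest named gene, had 1.81 with barcodes in both libraries left out. Ly6c2 and Ifitm1 differed likewise outside the members. In cells without Gzmk, Ly6c2 was at 152 and 284 CPM and Ifitm1 at 11.7 and 302 CPM. In naive CD8 cells Ly6c2 was at 255 and 585 CPM, but Ifitm1 at 13.5 and 2.93 CPM. Ccl3 was at 582 and 911 CPM in cells without Gzmk, but at 165 and 163 CPM in PD-1 cells lacking TIM-3 and Tcf7.

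Inhibitory receptors differed in mixed directions. Vsir, which encodes VISTA, had a ratio of 0.90, Cd38 0.72 and Entpd1 0.68, whereas Tigit had -0.75 (-1.05 to -0.44). In all, 5 of 13 were higher and 1 lower, against 4.31% and 2.28% of all genes. The list median of 0.43 moved to -0.01 when ribosomal, mitochondrial and granzyme genes were left out of the total. With barcodes in both libraries left out, Vsir had 0.06, Entpd1 0.22 and the list a median of 0.03. Lag3 had a ratio of 0.07, and its interval included 0. Exhaustion factors had a median of -0.15, with 0 higher and 2 lower of 16: Nr4a1 at -0.71, a receptor-induced nuclear factor, and Maf at -0.65. Maf had 0.16 where Xist-bearing cells were left out and Y-linked UMIs required, and Nr4a1 had -0.53 in cells with 5000 to 20000 UMIs.

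Proliferation genes were higher in 10 of 18, with a median of 0.63, although Mki67 was 0 by rule. Over all genes 4.31% were higher and 2.28% lower. The proliferation median was 0.36 in cells with 5000 to 20000 UMIs and 0.34 at a gene minimum of 50 CPM. It was 0.92 where Xist-bearing cells were left out and Y-linked UMIs required. Stmn1, a microtubule regulator, was at 78.1 and 173 CPM, and Mcm5, a replication licensing factor, at 21.3 and 39.7 CPM. Interferon-response genes were higher in 4 of 9, with a median of 0.58. Isg15, an ubiquitin-like interferon product, was at 17.0 and 48.0 CPM, and Zbp1, a nucleic acid sensor, at 42.6 and 85.1 CPM. S100, annexin and galectin genes had a median of 0.50, with 4 of 14 higher.

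The lowest named gene, the melanocytic gene Dct at -4.17, had 97.6% of its counts labelled WT in 1 cell, and Ccl2, at -1.52, had 52.1% in 1 cell. The other lowest named genes were seen in more members. Hspa1a, an inducible HSP70 chaperone, was at 395 and 109 CPM, a log2 ratio of -1.85 (-1.94 to -1.76), and ranged from -1.96 to -1.32 across the settings. Hspa1b followed at -1.57 and Dnajb1, an HSP40 partner, at -1.01. Of 14 heat-shock genes 3 were lower and 1 higher, against 2.28% and 4.31% of all genes, with a median of -0.03. Dnajb1 had -0.52 with barcodes in both libraries left out. Sytl3, a granule-docking protein, was at 141 and 61.1 CPM, a ratio of -1.21, and was seen in 77.9% and 54.5% of members. Tsc22d3, the glucocorticoid-induced leucine zipper, had -1.05. Bcl2, a survival gene, had -0.84 (-1.03 to -0.66), and Tcf7 -1.14 at only 20.4 and 9.29 CPM. Tcf7 turned to 2.83 and Klf2 from -0.69 to 1.45 when barcodes in both libraries were left out.

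**Figure D4:**
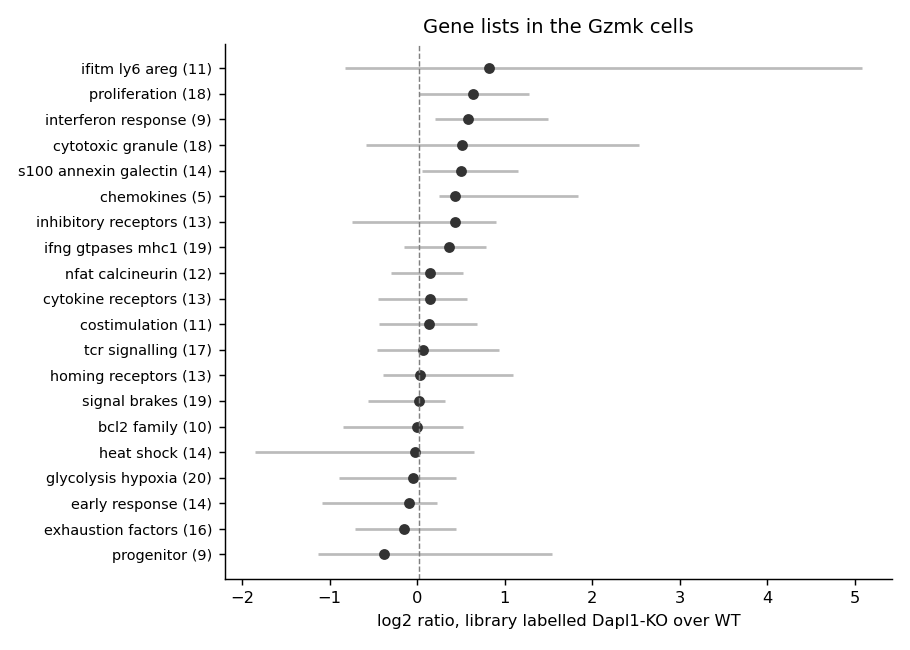
Log2 ratio of the library labelled Dapl1-KO over that labelled WT in Gzmk cells for 20 gene lists (vertical axis, number of measured genes in brackets). Points are list medians, grey lines run from the lowest to the highest gene, and the dashed line is the median of all genes at 0.03; proliferation genes have a median of 0.63.

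Further limits bear on the whole comparison. Scaling without ribosomal, mitochondrial and granzyme genes moved the median of all genes from 0.03 to -0.11. The split moved from 195 higher and 103 lower to 174 and 384. That smaller total shifted the ratio of each gene by the same amount, for example Gzmb from 1.01 to 0.90 and Tox from -0.27 to -0.38. It also raised every CPM, so more genes reached the 20 CPM minimum and the splits cover different sets of genes. Where Xist-bearing cells were left out and Y-linked UMIs required, the Gzmb and Prf1 ratios were 1.15 and 1.91, with 60 members labelled WT.

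Finally, members were divided at the median of Gzmk UMIs per 10000 UMIs. The upper portion was shallower, with median depths of 13405.5 against 17141 UMIs and 12481.5 against 17417 UMIs, so level and depth moved together. Of 4221 genes 49 (1.16%) were past the limit in both libraries, 7 higher (0.166%) and 42 lower (0.995%). Maf was higher where Gzmk was higher, with log2 ratios of 0.99 and 1.02. Xcl1 was lower, with -1.25 and -1.72, and Nrgn, a calmodulin-binding protein, with -1.24 and -1.21. In cells with 5000 to 20000 UMIs only 4 of 11 named genes past the limit remained so, and Maf had 0.30. With barcodes in both libraries left out 2 of 11 did, and Xcl1 had -0.17.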

How the data were processed

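Single-cell libraries, labelled WT and Dapl1-KO, were analysed. The authors deposited raw UMI counts per gene and barcode, made with Cell Ranger 5.0.0 on mm10 (GRCm38) per the submitters' processing notes. Of a barcode in both libraries, the copy with at least 2 times the UMIs of the other was kept. Cells needed at least 500 genes and at most 10% mitochondrial UMIs. Counts were summed per population and library and scaled to CPM. A gene counted as different at 1.5-fold or more if it reached 20 CPM, in both libraries for comparisons between populations. A group at 0 counts was set to 3 counts. For comparisons between populations a ratio is the smaller of the libraries' values where a single value is given, and 0 where they differ in direction.

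Members and gene lists were chosen with earlier results of these data known. Named genes were the 12 highest and 12 lowest between libraries, 10 and 10 between populations and 8 and 8 by Gzmk level, at 50 CPM or more and without antigen receptor, sex-linked, mitochondrial, ribosomal and unnamed genes, plus examples from the lists. Of these, 1 gene from the comparison with progenitor-like cells is not reported or plotted here. The split by Gzmk level was first made after randomly thinning cells to 3000 UMIs. That split was given up because its genes changed with the draw, and the division by Gzmk per 10000 UMIs took its place. The ranking without cells of other lineages was added after the data were seen. Such cells held at least 2 distinct markers of macrophages, dendritic, B, melanocytic or fibroblast cells, or 5 UMIs of 1 marker. Doublets were scored with Scrublet in scanpy 1.11.5. Its automatic threshold called 0 cells, so the highest 7.89% and 8.92% of scores were removed as an alternative. The ratio calculation was tested on simulated data. Calculations used Python 3.11.15, numpy 2.4.6, scipy 1.17.1 and pandas 2.3.3.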

Additional observations from a re-analysis of the deposited data

Results flagged for a closer look

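Some genes differed by 1.5-fold or more in opposite directions in the 2 libraries, which is why they are listed; the difference between the libraries was not tested. Beside cells without Gzmk, Il1b had log2 ratios of -3.83 in the library labelled WT and 0.88 in that labelled Dapl1-KO. Slpi had -3.65 and 0.61, and Hspb1, a small heat-shock protein, -0.81 and 1.63. Beside PD-1 cells lacking TIM-3 and Tcf7, Birc5, a regulator of cell division, had -0.90 and 0.90. Beside progenitor-like cells, Ccl2 had 0.77 and -1.60, Lgals3 -0.80 and 0.64, and Gzmc -0.63 and 4.52.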

How the results depend on the processing

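No paired analysis was possible because each genotype has 1 library. The cause of the movements below was not tested, except that stricter or looser limits change the number of genes tested or called by construction. The total without ribosomal, mitochondrial and granzyme genes does so too, because a smaller total raises every CPM against the fixed minimum. With the setting all deposited barcodes, the count past the limit was 23 beside PD-1 cells lacking TIM-3 and Tcf7. Members under the setting all deposited barcodes made up 65.5% of PD-1 TIM-3 CD8 cells (WT), 4.07% of kept cells (WT), 64.8% of PD-1 TIM-3 CD8 cells (Dapl1-KO), 5.06% of kept cells (Dapl1-KO). With the setting barcodes in both libraries left out, the count past the limit was 928 between the libraries, 104 beside cells without Gzmk, 112 beside PD-1 cells lacking TIM-3 and Tcf7, 90 by Gzmk level. Members under the setting barcodes in both libraries left out made up 65.4% of PD-1 TIM-3 CD8 cells (WT), 2.34% of kept cells (WT), 4.26% of kept cells (Dapl1-KO). With the setting Y-linked UMIs required and Xist or Tsix absent, the count past the limit was 1132 between the libraries, 35 beside PD-1 cells lacking TIM-3 and Tcf7, 29 by Gzmk level. Members under the setting Y-linked UMIs required and Xist or Tsix absent made up 63.8% of PD-1 TIM-3 CD8 cells (WT), 5.89% of kept cells (WT), 7.52% of kept cells (Dapl1-KO). With the setting only cells with 5000 to 20000 UMIs, the count past the limit was 31 beside PD-1 cells lacking TIM-3 and Tcf7, 24 by Gzmk level. Members under the setting only cells with 5000 to 20000 UMIs made up 6.31% of kept cells (WT), 7.63% of kept cells (Dapl1-KO). Members under the setting at least 2 Gzmk UMIs made up 51% of PD-1 TIM-3 CD8 cells (WT), 3.73% of kept cells (WT), 51.9% of PD-1 TIM-3 CD8 cells (Dapl1-KO), 4.79% of kept cells (Dapl1-KO). With the setting total without ribosomal, mitochondrial and granzyme genes, the count past the limit was 558 between the libraries, 56 beside cells without Gzmk, 80 by Gzmk level. With the setting mean over cells, the count past the limit was 52 beside cells without Gzmk, 108 beside PD-1 cells lacking TIM-3 and Tcf7. With the setting gene minimum 50 CPM, the count past the limit was 144 between the libraries, 19 beside cells without Gzmk, 36 beside PD-1 cells lacking TIM-3 and Tcf7, 464 beside progenitor-like cells, 17 by Gzmk level. With the setting gene minimum 5 CPM, the count past the limit was 919 between the libraries, 129 beside cells without Gzmk, 174 beside PD-1 cells lacking TIM-3 and Tcf7, 1476 beside progenitor-like cells, 169 by Gzmk level. With the setting looser fold limit, the count past the limit was 1207 between the libraries, 189 beside cells without Gzmk, 344 beside PD-1 cells lacking TIM-3 and Tcf7, 1838 beside progenitor-like cells, 200 by Gzmk level. With the setting fold limit of 2, the count past the limit was 84 between the libraries, 7 beside cells without Gzmk, 12 beside PD-1 cells lacking TIM-3 and Tcf7, 268 beside progenitor-like cells, 14 by Gzmk level. Named genes between the libraries that changed sign under the setting barcodes in both libraries left out had log2 ratios of: Basp1 -1.03, Ccl2 0.97, Cd244a -0.15, H2-Aa -0.16, H2-Eb1 -1.03, Ifng -0.15, Il1b -0.032, Jun 0.29, Klf2 1.45, Lef1 0.039, Slpi -1.62, Tcf7 2.83. Named genes between the libraries that changed sign under the setting 1000 genes and 5% mitochondrial UMIs had log2 ratios of: Dct 1.20. Named genes between the libraries that changed sign under the setting Y-linked UMIs required and Xist or Tsix absent had log2 ratios of: Ccl2 4.17, Dct 0.46, Ddit4 0.075, Maf 0.16. Named genes between the libraries that changed sign under the setting only cells with 5000 to 20000 UMIs had log2 ratios of: Ccl2 3.05, Dct 1.89. Named genes between the libraries that changed sign under the setting without cells with other-lineage markers had log2 ratios of: Ccl2 0.97, Dct 1.51. Of 41 named genes past the limit between the libraries, 41 kept their direction with median of ratios scaling and 29 with barcodes in both libraries left out, where 20 were still past the limit. Splitting members by Gzmk after 3 random thinnings gave 56, 55 and 46 genes. Maf had log2 ratios of 0.74, 0.86 and 0.83, but Gzmc -2.04, -0.81 and -1.85. Cd74, Klf2 and Fcer1g each differed in direction between the libraries in 1 draw. Depth limits sparse genes: members hold a median of 3 Gzmk UMIs.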
